A study of Mus musculus with 9 samples.

Results

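Histone chaperones and histone mRNA factors were followed as 10 named genes in RNA sequenced from thymic invariant natural killer T (iNKT) cells, T cells with a semi-invariant receptor for lipid antigens. The genes are Chaf1a and Chaf1b (large and middle subunit of chromatin assembly factor 1), Asf1a and Asf1b (the paired H3-H4 chaperones of the anti-silencing function 1 family), Nasp, Nap1l1, Hira, Hells, Slbp and Npat. They were chosen by gene symbol, and all 10 were found among the 21883 genes of the table. The study sequenced 9 libraries in 3 groups of 3, namely Med23-deficient cells at stage 2 and WT cells at stages 2 and 3. Stage 2 cells carry little NK1.1 and stage 3 cells carry much of it, both within CD24lo CD44hi iNKT cells sorted by flow cytometry. The WT mice were 6 weeks old, and the labels give no age for the Med23-deficient mice. Those mice had Med23 fl/fl alleles deleted by a Cd4-Cre transgene, which acts in all T cells that pass the CD4+CD8+ stage, and were backcrossed to B6. No Med23-deficient stage 3 library was made, so the genotype was compared at stage 2 alone.

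New nucleosomes are built from newly made histones that chaperones escort and deposit. Nasp holds a reserve of H3-H4, Asf1 hands H3-H4 dimers on, chromatin assembly factor 1 places them behind replication forks, and the Hira complex places the variant H3.3 outside replication. Nap1l1 carries H2A-H2B, and Hells is a nucleosome remodeller of the SNF2 family required for DNA methylation and used in replicating cells. Histone mRNA is itself tied to S phase. Npat, activated by cyclin E and Cdk2, turns on histone genes in the histone locus body, and Slbp binds the stem-loop that ends a histone mRNA in place of a poly(A) tail. iNKT cells divide at the early stages of their maturation in the thymus and cycle little once NK1.1 is high.

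The stem-loop that Slbp recognises is shown first because it is the sequence through which 1 of the 10 genes acts on histone mRNA. A hairpin of 6 paired bases and a loop of 4 (TTTC or TTTA), beginning with GG, was found in a GENCODE vM21 transcript of 40 of the 69 histone genes of the Hist1 to Hist4 clusters in the table. A miss does not show that a gene lacks the stem-loop, because an annotated transcript may end before it. The 69 include Hist3h2bb-ps, which is named as a pseudogene. The 16 bases of the hairpin came in 4 versions, and 26 of the 40 genes shared the hairpin of the first site shown, with flanks that could differ. The sites of 26 bases are given as DNA, with the hairpin in capitals.
Hist2h2aa2: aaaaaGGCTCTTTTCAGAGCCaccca
Hist1h4b: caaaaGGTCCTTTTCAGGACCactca
Hist2h2aa2 (chr3:96239749-96240276, minus strand, mm10) encodes an H2A, and Hist1h4b (chr13:23757013-23757409, plus strand) encodes an H4. The hairpins begin 51 and 44 bases before the end of their transcripts. In some other genes the match lay much farther from the annotated end, as in Hist4h4 (2461 bases) and Hist1h1d (4900 bases). The summed FPKM of the 69 histone genes was 2224 to 3030 in WT stage 2, 1494 to 1870 in WT stage 3 and 1025 to 1257 in Med23-deficient stage 2 libraries.

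The values are FPKM, which divide a gene's fragments by transcript length and library size, so levels of different genes can be set side by side. The files hold no counts, library depth is unknown, and counting error therefore has no interval here. The libraries had 15584 to 17333 genes above 0, and 1 non-coding model, Gm23935, took 62.2% to 71.9% of the summed FPKM of each. The NK receptor genes and other markers of stage 3 summed to 480 to 566 FPKM in WT stage 3 and to 138 to 201 FPKM in both stage 2 groups. Within that sum the stage 2 groups differed by gene. Klrb1c read 16.34, 26.24 and 7.65 FPKM in WT stage 2 and 4.60, 2.61 and 3.04 in Med23-deficient cells. Klrd1 read 4.66, 11.04 and 12.76, then 2.72, 1.08 and 0.61. Means of Tbx21 (29.4 against 38.9) and Il2rb (121 against 129) were instead higher in Med23-deficient cells. The 6 markers of T and iNKT cells summed to 650 to 1017 FPKM over the 9 libraries. Of these, Zbtb16 averaged 101 FPKM in WT stage 2, 27.5 in WT stage 3 and 78.1 in Med23-deficient stage 2. Markers of other cells were low. Over 7 thymocyte genes the sum was 1.67 to 4.99 FPKM, the 3 myeloid genes summed to 0 to 1.69, the 1 measured erythroid gene, Hbb-bs, was highest in WT stage 3 replicate 2 at 0.75, and the 1 measured B cell gene, Cd79a, was 0 in 8 libraries and 0.48 in WT stage 3 replicate 2. Med23 itself read 5.51, 5.15 and 6.74 FPKM in WT stage 2, 7.14, 4.44 and 6.12 in WT stage 3, and 4.80, 3.60 and 3.92 in Med23-deficient stage 2. The Med23-deficient libraries lay below the WT stage 2 libraries by 0.41 on the log2(FPKM + 1) scale (SE 0.18, limma adjusted p = 0.552). The table gives 1 value per gene, so transcripts with and without the deleted part are not separated.

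WT stage 3 replicate 2 stood apart from the other 2 WT stage 3 libraries in genes of dividing cells. Its 20 mitosis genes summed to 21.6 FPKM against 8.29 and 7.97, where WT stage 2 libraries held 74.2 to 95.8 and Med23-deficient libraries 13.1 to 15.4. Values of Chaf1a and Asf1b moved with it, and their differences that involve WT stage 3 are given below with and without this library. Asf1a was instead lower in this library (3.88 FPKM against 7.23 and 7.32). Without the library, the log2 differences of WT stage 3 from WT stage 2 were -0.76 for Nap1l1, -1.12 for Hells and -0.74 for Chaf1b. Asf1a was at 0.31, Slbp at 0.17, Nasp at -0.36, Hira at -0.26 and Npat at -0.29. Results for the other gene lists are given with all libraries.

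In WT stage 2 cells Nap1l1 was the most abundant of the 10 genes at 51.4 ± 0.93 FPKM (SD, n = 3). Slbp (10.9 ± 2.2) and Nasp (10.7 ± 2.5) followed and overlapped each other. Hira (7.28 ± 1.0), Npat (6.68 ± 0.96), Chaf1a (6.42 ± 1.4), Hells (6.33 ± 0.33) and Asf1a (5.74 ± 1.1) formed a run in which each gene overlapped the next. Asf1b (2.20 ± 0.32) and Chaf1b (1.90 ± 0.21) were lowest and overlapped. The 10 genes together summed to 104 to 114 FPKM in WT stage 2, 71.1 to 75.7 in WT stage 3 and 64.0 to 67.7 in Med23-deficient stage 2. The 3 groups did not overlap in this sum, of which Nap1l1 was the largest term.

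**Figure D1:**
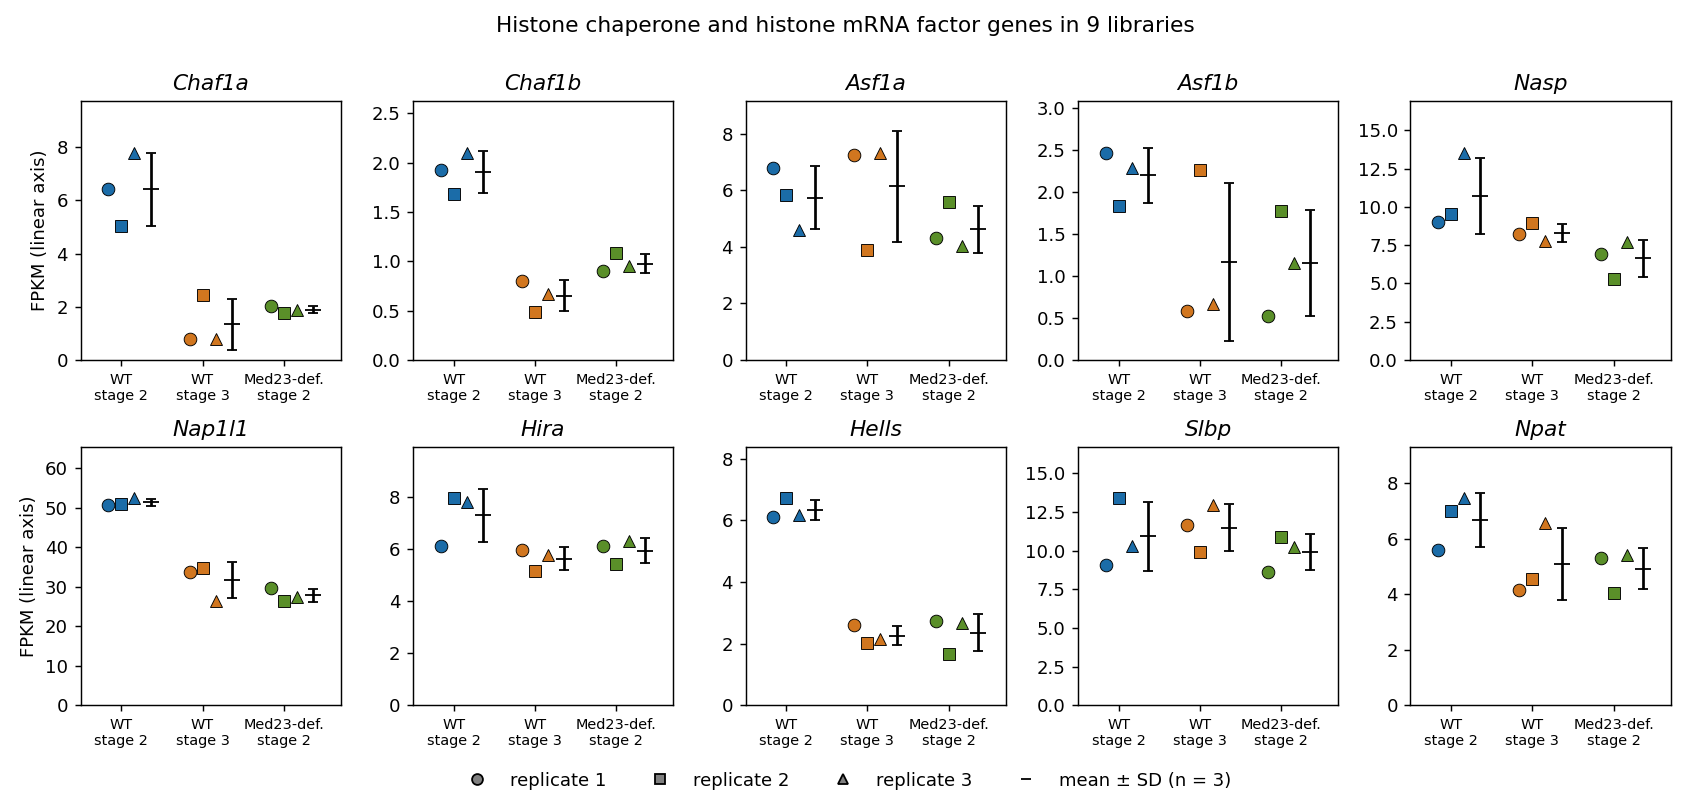
FPKM (linear axis from 0, scaled per gene) of the 10 genes in 9 libraries (Med23-deficient stage 2, and WT at both stages), with symbols for replicates and a bar for mean ± SD (n = 3). Chaf1a, Chaf1b, Nap1l1 and Hells were highest in all 3 WT stage 2 libraries (Nap1l1 at 50.61 to 52.40 FPKM), while the 3 groups overlapped in Slbp and Asf1a.

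The first comparison asks what separates stage 3 from stage 2 in normal cells. Of the 10 genes, 8 were lower and 2 (Asf1a and Slbp) higher in WT stage 3. Chaf1a and Hells fell by the study's 2 thresholds, a 2-fold change and a p at or below 0.05 without adjustment ("the fold and p thresholds" from here on), which 1.9% of the 20689 genes tested passed downward and 1.7% upward. Hells alone also passed an adjusted p of 0.05, as 0.914% of genes did downward and 0.759% upward. These shares include many genes of low level. In a fit of the 11781 genes averaging 1 FPKM or more, 351 passed the fold and p thresholds downward and 347 upward. There 267 passed the adjusted threshold downward, 3 of the 10 genes among them, and 229 upward. The unadjusted p alone was 0.05 or less for 4 genes, all lower (Chaf1a, Chaf1b, Nap1l1 and Hells), as for 7.79% of all genes downward and 5.44% upward. In 6 genes, those 4 with Nasp and Hira, each WT stage 3 value lay below each WT stage 2 value. Groups were apart in this way for 10.4% of all genes downward and 7.36% upward. The median log2 fold change of the 10 genes was -0.49, against -0.01 over all genes tested and -0.05 over genes averaging 1 FPKM or more. In these sorted populations fewer cells with a transcript and less transcript per cell cannot be told apart.

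The second comparison set Med23-deficient cells against WT cells at stage 2. Med23 is a subunit of the Mediator complex that links transcription factors to RNA polymerase II. This comparison used the same 3 WT stage 2 libraries as the first, so the 2 sets of values share their controls and their likeness was not measured. The Med23-deficient samples were numbered in a separate run from all WT samples. The sources used here do not say whether both were prepared or sequenced together. A difference of preparation therefore cannot be told apart from loss of Med23, here or in the third comparison. All 10 genes were lower in Med23-deficient cells. Chaf1a and Hells again passed the fold and p thresholds (1.32% of 20674 genes downward, 0.798% upward), and Nap1l1 passed an adjusted p of 0.05 (0.145% downward, 0.0677% upward). In a fit of the 11750 genes averaging 1 FPKM or more, 263 passed the fold and p thresholds downward and 164 upward. There 95 passed the adjusted threshold downward, 2 of the 10 genes among them, and 48 upward. Without adjustment p was 0.05 or less for 5 genes, all lower (Chaf1a, Chaf1b, Nap1l1, Hells and Nasp), as for 6.02% of all genes downward and 3.56% upward. The groups did not overlap for 7 genes, those 5 with Npat and Asf1b, as for 8.37% of all genes downward and 5.63% upward. The median log2 fold change was -0.58, against -0.01 over all genes tested and -0.05 over genes averaging 1 FPKM or more.

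**Figure D2:**
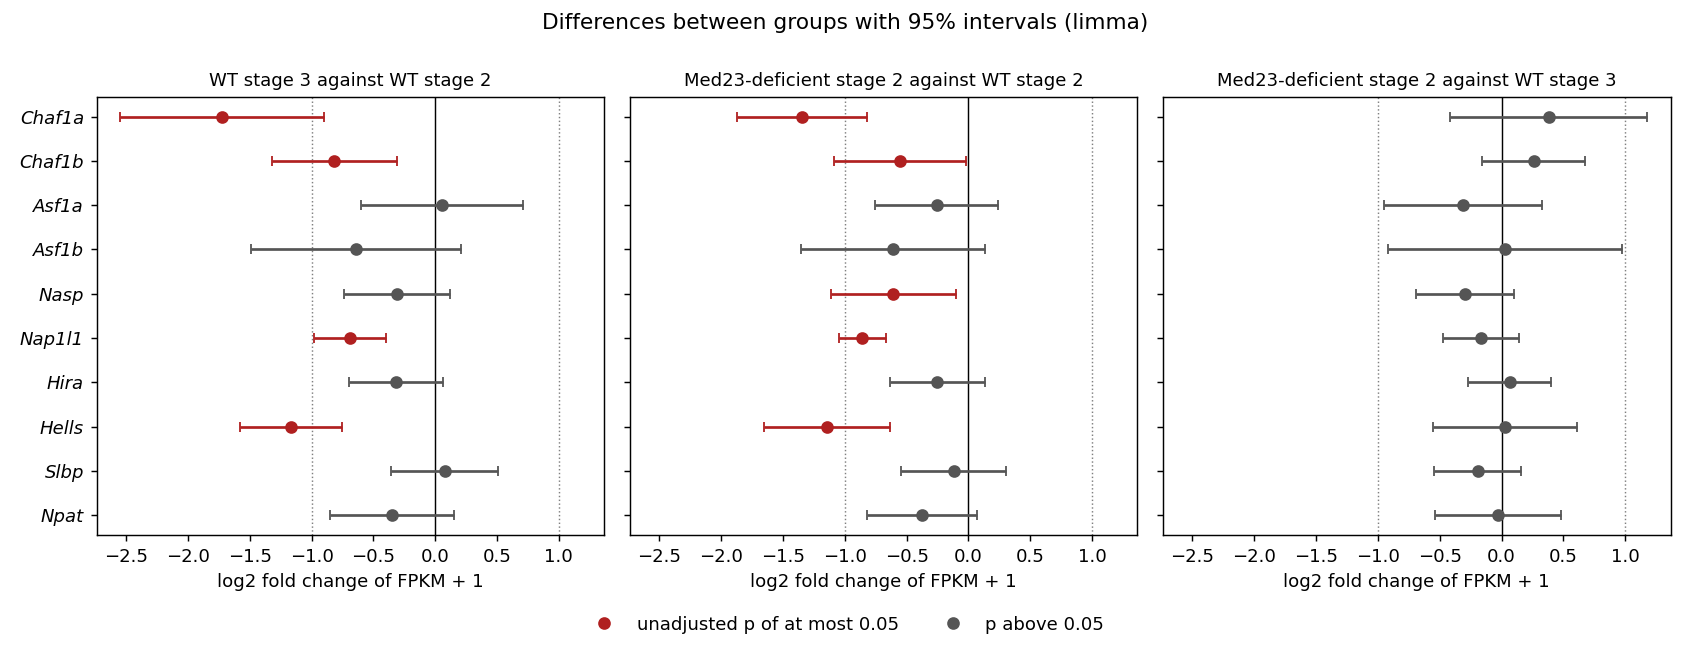
Log2 fold changes of FPKM + 1 (horizontal axis) of the 10 genes in 3 comparisons, as points with 95% intervals from limma (3 libraries a group), red where p is at or below 0.05 before adjustment; dotted lines mark a 2-fold change. Chaf1a (-1.72 and -1.35) and Hells (-1.17 and -1.14) lie farthest left in the first 2 panels, and every interval of the last panel includes 0.

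Chaf1a (ENSMUSG00000002835, chr17:56040416-56068026, plus strand) encodes the subunit of chromatin assembly factor 1 that binds PCNA at replication forks. It read 6.44, 5.02 and 7.79 FPKM in WT stage 2, 0.78, 2.44 and 0.78 in WT stage 3, and 2.03, 1.76 and 1.87 in Med23-deficient stage 2. Every WT stage 2 library was above the other 6, and replicate 2 of WT stage 3 was the highest of those 6. The mean in WT stage 3 was 20.8% of that in WT stage 2, and in Med23-deficient cells 29.4%. Chaf1a fell by 1.72 on the log2(FPKM + 1) scale in WT stage 3 (SE 0.34, limma adjusted p = 0.0791) and by 1.35 in Med23-deficient cells (SE 0.22, adjusted p = 0.0992). Without WT stage 3 replicate 2 the first of these was -2.04. Neither passed the adjusted threshold. A linear model of the study's kind, called Ballgown-style here, shares no information between genes. Its covariate is each library's sum of log2(FPKM + 1) over genes above 0 and below the library's upper quartile. In this model the stage difference had an unadjusted p of 0.0877 (3 libraries a group). No exact test of 3 against 3 can go below 0.1.

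Chaf1b (ENSMUSG00000022945, chr16:93883901-93906115, plus strand), the WD-repeat partner of Chaf1a, was less abundant. It read 1.93, 1.68 and 2.10 FPKM in WT stage 2, 0.80, 0.49 and 0.67 in WT stage 3, and 0.90, 1.08 and 0.95 in Med23-deficient cells. WT stage 3 was lowest and Med23-deficient cells lay between the WT groups, with no overlap among the 3. The log2 difference from WT stage 2 was -0.81 in WT stage 3 (SE 0.21, limma adjusted p = 0.147) and -0.55 in Med23-deficient cells (SE 0.22, adjusted p = 0.50). The latter had a p just under 0.05 before adjustment. It lay above 0.05 with any 1 library left out, with pseudocounts of 0.1 and 0.01, and with a minimum mean FPKM of 1. The same held with a common upper quartile and with the replicate block. It stayed below 0.05 on the TPM scale, without limma's trend, with all 9 libraries, and in the Ballgown-style linear model. At these levels a pseudocount of 1 compresses a difference. The plain ratio of means was 34.3% and 51.3% of WT stage 2, and with a pseudocount of 0.1 the stage difference was -1.43 and passed the fold and p thresholds. Rbbp4, the small histone-binding subunit, which other chromatin complexes share, was 14.0 ± 1.7, 11.9 ± 1.4 and 11.3 ± 0.11 FPKM in the 3 groups (log2 differences -0.22 and -0.28, adjusted p = 0.590 and 0.543).

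Hells (ENSMUSG00000025001, chr19:38930915-38971051, plus strand) read 6.11, 6.71 and 6.16 FPKM in WT stage 2, 2.60, 2.03 and 2.17 in WT stage 3, and 2.73, 1.67 and 2.67 in Med23-deficient cells. Its SD in WT stage 2 was smaller than those of Hira, Npat, Chaf1a and Asf1a, which had similar means, and more than 3 FPKM separated them from the highest value of the other groups. It fell by 1.17 in WT stage 3 (SE 0.17, limma adjusted p = 0.0404) and by 1.14 in Med23-deficient cells (SE 0.21, adjusted p = 0.136). WT stage 3 replicate 2, high in mitosis genes, was the lowest WT stage 3 library for Hells. Cdca7, which recruits Hells to nucleosomes, was 7.20 ± 1.3 FPKM in WT stage 2, 2.98 ± 1.1 in WT stage 3 and 3.07 ± 0.69 in Med23-deficient cells, and it passed the fold and p thresholds in both comparisons (log2 -1.07 and -1.01, adjusted p = 0.136 and 0.191).

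Nap1l1 (ENSMUSG00000058799, chr10:111473192-111498142, plus strand) read 50.61, 51.08 and 52.40 FPKM in WT stage 2, 33.69, 34.82 and 26.48 in WT stage 3, and 29.71, 26.49 and 27.48 in Med23-deficient cells. The WT stage 2 libraries lay within 2 FPKM of each other and far above the other 6. Nap1l1 fell by 0.86 in Med23-deficient cells (SE 0.08, limma adjusted p = 0.0304), a mean of 54.3% of WT stage 2, and the log2 difference in WT stage 3 was -0.69 (SE 0.12, adjusted p = 0.0572), a mean of 61.6%. Its close relative Nap1l4, also an H2A-H2B chaperone, was 36.4 ± 1.1, 29.7 ± 0.85 and 34.7 ± 2.8 FPKM in WT stage 2, WT stage 3 and Med23-deficient cells. Nap1l4 was thus lower in WT stage 3 too (log2 -0.29, SE 0.07, limma adjusted p = 0.151), with a p at or below 0.05 before adjustment. The ratio of Nap1l1 to Nap1l4 was 1.37 to 1.45 in WT stage 2, 0.90 to 1.20 in WT stage 3 and 0.786 to 0.820 in Med23-deficient libraries, so that Nap1l4 was the more abundant of the pair in all 3 Med23-deficient libraries and the less abundant in all 3 WT stage 2 libraries.

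Nasp (ENSMUSG00000028693, chr4:116601052-116627941, minus strand) read 9.0, 9.52 and 13.53 FPKM in WT stage 2, 8.23, 8.93 and 7.77 in WT stage 3, and 6.93, 5.29 and 7.68 in Med23-deficient cells. The groups were ordered without overlap, although the highest WT stage 3 value lay just under the lowest of WT stage 2. The log2 differences from WT stage 2 were -0.31 (SE 0.18, limma adjusted p = 0.533) and -0.61 (SE 0.21, adjusted p = 0.416). Replicate 3 of WT stage 2 was the highest library, and without it they were -0.14 and -0.44, the latter no longer with a p at or below 0.05 before adjustment. In the Ballgown-style linear model the differences were 0.0018 in WT stage 3 and -0.34 in Med23-deficient cells. GENCODE vM21 names 1 pseudogene of Nasp, and reads hitting a pair of loci were kept upstream, so some reads may be shared with it.

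Neither of the 2 Asf1 genes passed the fold and p thresholds or the adjusted one in either comparison with WT stage 2. Asf1b (ENSMUSG00000005470, chr8:83955507-83970197, plus strand), the form linked to proliferating cells, read 2.47, 1.84 and 2.29 FPKM in WT stage 2, 0.58, 2.26 and 0.67 in WT stage 3, and 0.52, 1.78 and 1.16 in Med23-deficient cells. Replicate 2 of WT stage 3 lay within the WT stage 2 range, and the other 2 libraries of its group were below all 3 WT stage 2 values. The log2 difference was -0.64 in WT stage 3 (SE 0.35, limma adjusted p = 0.513) and -0.61 in Med23-deficient cells (SE 0.31, adjusted p = 0.609). Without WT stage 3 replicate 2 the stage difference was -0.97, with a p at or below 0.05 before adjustment. The pseudocount of 1 compresses Asf1b too, and with 0.1 and all libraries the 2 differences were -1.09 and -1.01, neither with a p at or below 0.05. Asf1a (ENSMUSG00000019857, chr10:53596961-53609213, plus strand), the form expressed more evenly over the cell cycle, read 6.79, 5.83 and 4.60 FPKM, then 7.23, 3.88 and 7.32, then 4.30, 5.57 and 4.01. Its groups overlapped, with log2 differences of 0.06 (95% interval -0.60 to 0.71) and -0.26 (-0.76 to 0.24). Asf1a overlaps Mcm9 on the other strand and Chaf1a overlaps Ubxn6, and whether the counting used strand is not stated in the sources used here. Over the 9 libraries Asf1a was the more abundant paralog in each.

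Hira (ENSMUSG00000022702, chr16:18877037-18970309, plus strand) read 6.12, 7.93 and 7.79 FPKM in WT stage 2, 5.97, 5.13 and 5.78 in WT stage 3, and 6.10, 5.40 and 6.30 in Med23-deficient cells. The difference from WT stage 2 was -0.32 (95% interval -0.69 to 0.06) and -0.25 (-0.63 to 0.13) on the log2 scale, so the intervals do not reach a 2-fold fall. Of its complex partners, Ubn1 was 24.1 ± 2.4, 19.9 ± 1.1 and 22.7 ± 1.8 FPKM in the 3 groups, Ubn2 4.51 ± 1.3, 5.34 ± 0.65 and 4.95 ± 1.3, and Cabin1 18.7 ± 1.2, 15.5 ± 2.2 and 15.5 ± 1.4. Ubn1 was lower without overlap in WT stage 3 (log2 -0.26, limma adjusted p = 0.365), with a p at or below 0.05 before adjustment. None of these 3 had a smaller adjusted p in either comparison.

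Slbp (ENSMUSG00000004642, chr5:33634952-33652574, minus strand) read 9.08, 13.38 and 10.31 FPKM in WT stage 2, 11.63, 9.90 and 12.95 in WT stage 3, and 8.61, 10.90 and 10.21 in Med23-deficient cells. All 3 groups overlapped. The log2 difference was 0.08 in WT stage 3 (95% interval -0.35 to 0.51) and -0.12 in Med23-deficient cells (-0.54 to 0.31), and neither interval holds a 2-fold change. Slbp protein is known to be limited to S phase largely by translation and degradation, which an RNA level does not read.

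Npat (ENSMUSG00000033054, chr9:53537047-53574342, plus strand) read 5.60, 6.99 and 7.45 FPKM in WT stage 2, 4.17, 4.55 and 6.55 in WT stage 3, and 5.30, 4.06 and 5.40 in Med23-deficient cells. The log2 differences were -0.35 (95% interval -0.85 to 0.16) and -0.38 (-0.82 to 0.07). Atm, the DNA damage kinase gene that starts 307 bases away on the other strand, was -0.33 and -0.28. Of the kinase that activates Npat, Cdk2 read 13.73, 11.53 and 16.24 FPKM in WT stage 2, 8.57, 5.42 and 6.68 in WT stage 3, and 11.74, 13.05 and 12.24 in Med23-deficient cells. Only WT stage 3 lay below the others for Cdk2, with a log2 difference of -0.92 from WT stage 2 (SE 0.20, limma adjusted p = 0.103), -0.14 for Med23-deficient cells against WT stage 2, and 0.78 for Med23-deficient cells against WT stage 3 (SE 0.17, adjusted p = 0.142). Ccne1, a cyclin E, was 2.73, 1.71 and 3.65 FPKM in WT stage 2, 1.11, 0.60 and 0.54 in WT stage 3, and 0, 1.13 and 1.49 in Med23-deficient cells. Ccne2, the other cyclin E, was 0.65, 2.23 and 1.97, then 0, 0.10 and 0, then 0.64, 0.10 and 0.19. Both cyclin E genes passed the fold and p thresholds in WT stage 3 and not in Med23-deficient cells, but between those 2 groups they differed by 0.01 and 0.32 on the log2 scale (limma adjusted p = 0.995 and 0.583). Casp8ap2 and Lsm11, further parts of the histone locus body and the U7 particle, were 8.97 ± 1.3 and 1.15 ± 0.15 FPKM in WT stage 2, and their log2 differences of 0.10 to 0.31 were upward in both comparisons. Lsm10, the partner of Lsm11, was 5.34 ± 2.9, 2.19 ± 0.71 and 3.15 ± 1.9 FPKM.

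The third comparison set Med23-deficient stage 2 directly against WT stage 3, and it tests whether the differences of the first and second comparison were unequal. None of the 10 genes passed either call, as 1.48% of 20846 genes did downward and 1.39% upward by fold and p, and 0.628% and 0.705% by adjusted p, and none had a p at or below 0.05 before adjustment (limma; 4.89% downward and 5.32% upward). In the Ballgown-style linear model, 0 passed the fold and p thresholds. The unadjusted p depended on single libraries. Without WT stage 3 replicate 2, Chaf1a was at 0.70 and Asf1a at -0.57, both with a p at or below 0.05 before adjustment, and Asf1b was at 0.36. Without replicate 3 of WT stage 3, Nap1l1 was at -0.29, also with such a p. Chaf1b reached it without limma's trend, and Nasp in the Ballgown-style model. Of the 10, 5 were higher and 5 lower, with a median of 0.00. Chaf1b was higher in all 3 Med23-deficient libraries (log2 0.26, 95% interval -0.15 to 0.68) and Nasp lower in all 3 (-0.30, -0.69 to 0.10), where 7.48% and 6.75% of all genes did not overlap. The interval of Chaf1a, -0.42 to 1.18, and that of Asf1b, -0.92 to 0.97, were the widest, so that a difference of close to 2-fold upward lies within both. The intervals of Hira (-0.27 to 0.40), Slbp (-0.55 to 0.16) and Nap1l1 (-0.47 to 0.14) were narrower.

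Beside the 10 genes stand 33 other chaperone genes, 31 other histone mRNA factors, 23 genes of DNA replication and 20 of mitosis. Of the other chaperones, 13 were lower and 1 higher with a p at or below 0.05 before adjustment in WT stage 3, and 12 were lower and 2 higher in Med23-deficient cells, but Cdca7 alone passed the fold and p thresholds. Anp32b, a histone-binding acidic protein, had log2 differences of -0.74 (limma adjusted p = 0.0613) and -0.50 (0.195). Set, another acidic chaperone, was at -0.38 in Med23-deficient cells (adjusted p = 0.166), Supt16, a subunit of FACT that carries H2A-H2B during transcription and replication, at -0.31 in WT stage 3 (0.118), and Srcap, the ATPase that inserts H2A.Z, at 0.45 in Med23-deficient cells (0.218). Against WT stage 3, Med23-deficient cells were lower in Npm3, of the nucleoplasmin family (-0.69, adjusted p = 0.0551), and higher in Hjurp, the chaperone of the centromeric H3 (0.43, 0.161), 2 of the 6 chaperones whose unadjusted p reached 0.05 there.

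The other histone mRNA factors had median log2 differences of -0.14 and -0.13. By fold and p 2 were lower in WT stage 3 (Ccne1 and Ccne2, described above) and 0 in Med23-deficient cells. At an unadjusted p of 0.05 or less, 7 were lower and 1 higher in WT stage 3, and in Med23-deficient cells 6 were lower and none higher. Among those with the smallest p were Snrpb, a shared Sm protein of spliceosomal and U7 particles (-0.41 and -0.56, limma adjusted p = 0.0786 and 0.206), and the gene listed as Cpsf3l, an Integrator nuclease gene (-0.51 and -0.54, adjusted p = 0.102 and 0.170). Cpsf3, the nuclease that cuts the histone pre-mRNA, was -0.40 in Med23-deficient cells (adjusted p = 0.364).

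Of the genes of DNA replication 22 of 23 were lower in WT stage 3 and all 23 in Med23-deficient cells, 9 and 13 of them with a p at or below 0.05 before adjustment and 1 and 3 by fold and p, with medians of -0.53 and -0.66, near those of the 10 genes. Mcm3, of the replicative helicase, was -0.78 and -0.84 (limma adjusted p = 0.0988 and 0.0427), Dut, which clears dUTP, -0.97 and -1.05 (0.0229 and 0.0925). Pcna, the sliding clamp to which Chaf1a binds, read 32.29, 33.99 and 34.43 FPKM in WT stage 2, 29.12, 32.43 and 25.54 in WT stage 3, and 16.43, 18.07 and 17.52 in Med23-deficient cells. It fell by 0.92 in Med23-deficient cells against WT stage 2 (adjusted p = 0.0304) and was 0.71 lower on the log2 scale than in WT stage 3 (adjusted p = 0.0508). Among mitosis genes all 20 were lower in WT stage 3 and 19 in Med23-deficient cells, 14 and 11 of them by fold and p, with medians of -1.27 and -1.13. Mki67, a marker of cycling cells, read 22.25, 29.70 and 34.82 FPKM in WT stage 2, 2.25, 7.47 and 1.69 in WT stage 3, and 4.05, 2.09 and 2.89 in Med23-deficient cells. Cycling genes thus moved with Chaf1a, Hells and Nap1l1 in both comparisons, and their part in those values was not tested.

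**Figure D3:**
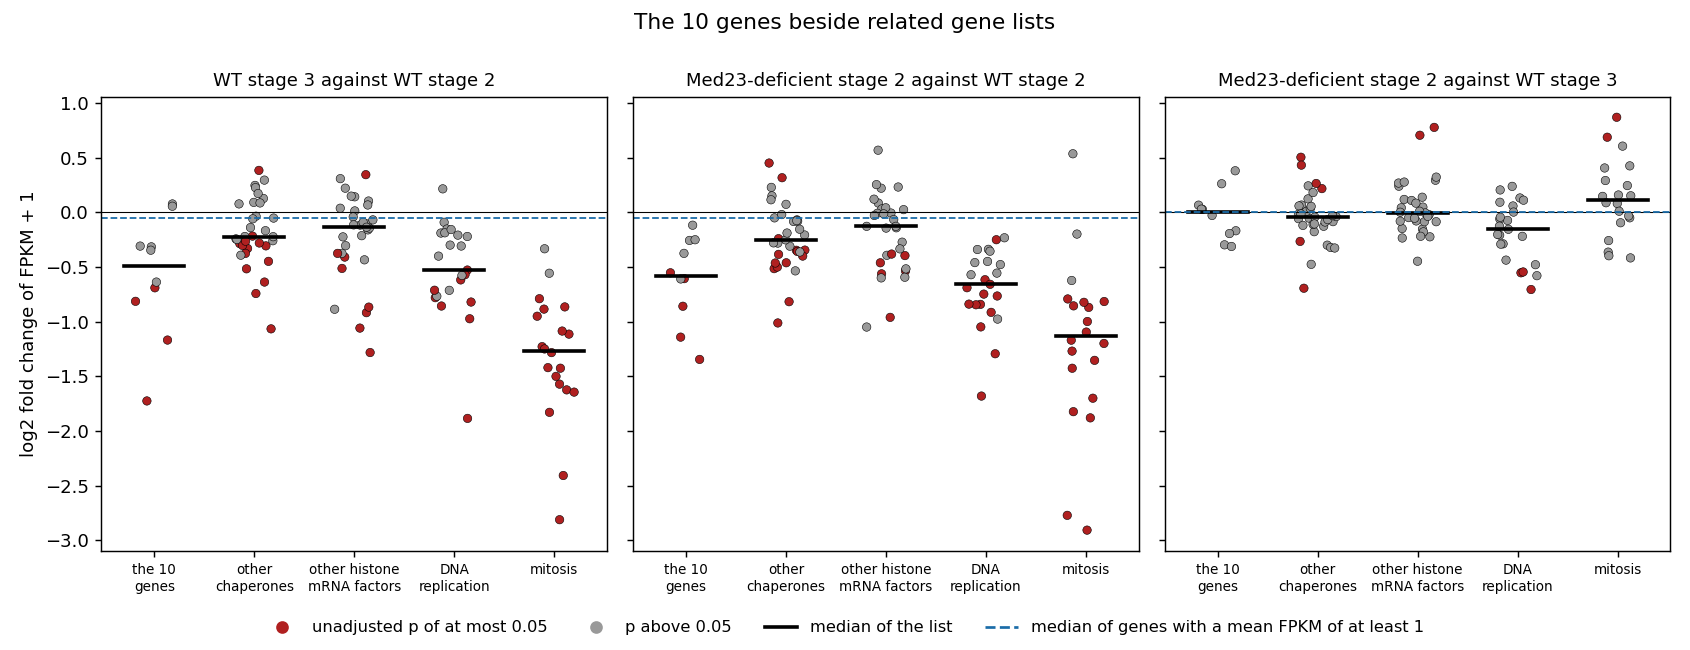
Log2 fold changes of FPKM + 1 (vertical axis) of the 10 genes and of 4 lists (33 other chaperones, 31 other histone mRNA factors, 23 replication and 20 mitosis genes) in 3 comparisons; each point is a gene, black bars are medians and the dashed line is the median of genes averaging 1 FPKM or more. The medians of the 10 genes (-0.49 and -0.58) lie near those of replication genes (-0.53 and -0.66) and above those of mitosis genes (-1.27 and -1.13).

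Genes whose log2(FPKM + 1) followed a member most closely over the 9 libraries were ranked by Pearson's r among 9661 genes averaging 1 FPKM or more, leaving out models named only by a Gm number or a Rik clone. The 9 libraries are 3 groups of 3, so a high r mostly restates the difference between groups, and no p is given. For Chaf1a the highest were Ppm1f (0.971), Pdcd1, the inhibitory receptor PD-1 (0.963), Ppp2r1b (0.963), Txlna (0.962) and Top2a (0.960). For Chaf1b they were Hmgn2, a nucleosome-binding protein (0.970), Birc5 (0.970), Xrcc6 (0.951), Pdlim1 (0.950) and Eng (0.942). Nap1l1 was followed by Tkt (0.974), Cfl1 (0.974), the condensin subunit Ncapd2 (0.970), Mcm3 (0.969) and Cd163l1 (0.963). Among the genes that followed Hells were Cops5 (0.963), Dnaja2 (0.962), Pcsk1 (0.961) and Sdc1, syndecan-1 (0.961). The highest values for the other genes were lower for Slbp (Arsk, 0.922) and Asf1a (Prps2, 0.866), and were 0.934 for Nasp (with the histone gene Hist1h2bl), 0.944 for Asf1b, 0.953 for Hira and 0.962 for Npat. Among the 10 genes themselves Hells and Nap1l1 were closest (r = 0.931), Chaf1a and Chaf1b had r = 0.860, and Asf1a and Asf1b had r = -0.22.

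The promoters of the members were read because 4 genes were lower together in both comparisons, each with a p at or below 0.05 before adjustment, which for Chaf1b in Med23-deficient cells depended on the setting. All 10 matched a RefSeq promoter window (GRCm38.p6, the build that mm10 names) of 250 bases before and 50 after the start. On both strands, windows were searched for the E2F word TTCCCGC, for CCAAT, to which NF-Y binds, and for the cell cycle homology region (TTTGAA or TTCGAA) of genes expressed late in the cycle. The E2F word was found in Chaf1a, Chaf1b, Nap1l1 and Hells, the 4 genes so chosen, and in none of the other 6. It was in 4.66% of 27025 promoters and in 8.78% of the 7269 promoters of expressed genes. The words were chosen with the members' values known, so this is a description and no test was made. The 4 genes were themselves picked from comparisons that share the WT stage 2 libraries. A stricter set of longer E2F words (TTTCCCGC, TTTCGCGC, TTTGCCGC and TTTGGCGC, of which the first contains the shorter word) was found in Hells alone (4.47% of expressed genes). CCAAT was in 7 of 10 windows (39.2% of expressed genes) and the cell cycle word in Asf1b and Nasp (13.6%).

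The upstream windows of 3 of those genes are shown up to the base before the gene start in the table, with a 30-base site for Hells, because they hold the E2F word. All are on the plus strand, with matches in capitals (GCGGGAA and ATTGG are the words on the other strand).
Chaf1a, chr17:56040166-56040415: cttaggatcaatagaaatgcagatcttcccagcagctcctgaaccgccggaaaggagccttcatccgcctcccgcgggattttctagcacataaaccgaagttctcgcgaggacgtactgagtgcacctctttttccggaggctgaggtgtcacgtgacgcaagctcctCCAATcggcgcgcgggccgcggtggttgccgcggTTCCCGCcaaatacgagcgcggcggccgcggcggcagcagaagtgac
Chaf1b, chr16:93883651-93883900: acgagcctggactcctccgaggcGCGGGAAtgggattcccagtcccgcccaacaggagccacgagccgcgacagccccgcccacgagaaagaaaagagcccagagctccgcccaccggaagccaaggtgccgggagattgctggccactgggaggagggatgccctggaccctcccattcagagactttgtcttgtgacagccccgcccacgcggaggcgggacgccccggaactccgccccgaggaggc
Nap1l1, chr10:111472977-111473191: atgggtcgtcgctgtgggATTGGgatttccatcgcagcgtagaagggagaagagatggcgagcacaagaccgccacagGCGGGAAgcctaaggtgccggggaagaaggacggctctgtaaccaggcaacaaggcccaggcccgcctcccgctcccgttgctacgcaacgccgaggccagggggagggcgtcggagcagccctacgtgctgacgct
Hells, chr19:38930917-38930946: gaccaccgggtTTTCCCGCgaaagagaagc
From the RefSeq start, the E2F word ran from base -47 to -41 in Chaf1a, -61 to -55 in Hells and -172 to -166 in Nap1l1. Chaf1b held it from -227 to -221 and again from 26 to 32, past the start. The first 3 windows overlap no exon of GENCODE vM21, while the Hells site lies downstream of the gene start in the table and upstream of the RefSeq start.

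**Figure D4:**
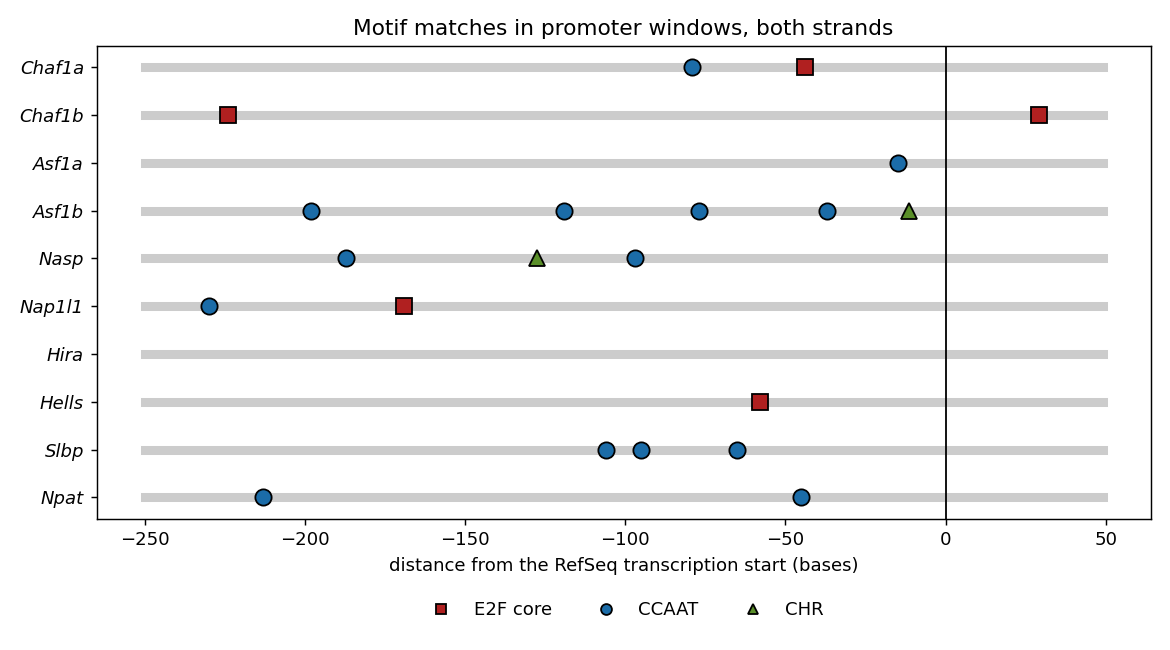
Matches to the E2F core word, to the CCAAT box and to the cell cycle homology region (CHR) in promoter windows of the 10 genes, by distance in bases from the RefSeq transcription start (0), both strands. E2F matches are in 4 windows, CCAAT matches in 7 and CHR matches in 2; Hira has none.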

How the data were processed

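The authors made strand-preserving libraries of total RNA with a kit for low inputs. Adapters and low-quality bases were removed with Trimmomatic 0.36, reads were aligned to mm10 with HISAT2, and reads hitting at most 2 loci were used by StringTie to quantify GENCODE vM12 genes. The authors deposited FPKM per gene and library in 1 table, with replicates kept apart. No counts were given, so depth is unknown. Log2(FPKM + 1) was fitted in R 4.3.3 by limma 3.58.1 (functions lmFit and eBayes, with trend) on the 6 libraries of each of 3 comparisons, over genes above 0 in at least 1 library. Fold changes on this scale understate low genes. Calls used the study's thresholds (2-fold, a p at or below 0.05 without adjustment) or, separately, a p at or below 0.05 after Benjamini-Hochberg adjustment. The study describes its sequencing as standing for 3 independent experiments, but neither it nor the labels tie a library to an animal, so p-values measure the spread between libraries, which may be technical. Replicate numbers were not used as pairs. The members, lists and motif words were chosen with earlier results of these data known. Beside the 10 members, the text names up to 4 genes per list and comparison with the smallest p, direct partners, and genes of like pattern, of which 1 is not reported here. Alternatives were pseudocounts of 0.1 and 0.01, a minimum mean FPKM of 1, the TPM scale, a common upper quartile, limma without trend, a Ballgown-style linear model, all 9 libraries, a replicate block, and each library left out. The tests were checked on simulated data, with changes larger than those of the 10 members, in genes more abundant than most of them. Smaller changes and lower genes were not simulated. Promoter sequences came from RefSeq (GRCm38.p6) and transcripts from GENCODE vM21. Figures were drawn with Python 3.11.15 and matplotlib 3.10.9.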

Additional observations from a re-analysis of the deposited data

How the results depend on the processing

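With the Ballgown-style model the fold and p calls among the 10 genes were 1 in each comparison with WT stage 2 (Hells in WT stage 3, Chaf1a in Med23-deficient cells) in place of 2. Leaving out each library in turn gave 2 in WT stage 3 and 1 to 2 in Med23-deficient cells, where Hells was at -0.98 without replicate 2 of that group. Adjusted calls were less stable. In WT stage 3, 1 gene became 3 with a minimum mean FPKM of 1 or with all 9 libraries, 2 without trend, and 0 on the TPM scale, in the Ballgown-style model and with the replicate block. In Med23-deficient cells, 1 became 2 with the minimum or all 9 libraries, and 0 on the TPM scale, in the Ballgown-style model and with the block. With any 1 library left out (fewer samples) the adjusted calls were 0 to 0 in both comparisons. The replicate block changed no fold and p call of the 10 genes, and replicate numbers were weakly tied (r of deviations 0.004 to 0.27), with 3 of 3, 1 of 3 and 2 of 3 libraries closest to their own number in the 3 comparisons. Signs turned for some genes that passed neither call. Asf1a in WT stage 3 was 0.06 in the main fit, -0.028 on the TPM scale and -0.35 in the Ballgown-style model. Nasp in WT stage 3 was -0.31 in the main fit and 0.0018 in the Ballgown-style model. Slbp in WT stage 3 was 0.08 in the main fit and -0.019 on the TPM scale. With libraries left out, Asf1a in WT stage 3 ranged from -0.076 to 0.31, Slbp from -0.037 to 0.22, and from -0.23 to 0.025 in Med23-deficient cells; against WT stage 3, Asf1b ranged from -0.18 to 0.36, Hells from -0.058 to 0.18 and Npat from -0.14 to 0.14. Chaf1b, below a mean FPKM of 1, had no value under that minimum in the third comparison. Over all genes, fold and p calls were 745, 437 and 597 and rose to 1423, 971 and 1221 with a pseudocount of 0.1; adjusted calls of 346, 44 and 278 fell to 5, 1 and 18 in the Ballgown-style model and to 19, 0 and 42 with the block. In Med23-deficient cells 165 of 437 fold and p calls were upward, 88 of 339 on the TPM scale. The cause of these changes was not tested.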
